A study of Saccharomyces cerevisiae with 4 samples.

Results

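The DUP240 genes of the budding yeast Saccharomyces cerevisiae encode small membrane proteins of closely similar sequence. The family considered here has 10 members in the reference strain: the tandem cluster YAR023C, UIP3, YAR028W, YAR029W, PRM9 and MST28 on chromosome I, the adjacent pair PRM8 and MST27 on chromosome VII, and the single copies YCR007C on chromosome III and YHL044W on chromosome VIII. Members were chosen by gene identity, and every probe set that the array annotation assigns to one of them was taken. This gave 6 probe sets for 5 of the 10 members, out of 5449 yeast genes with a probe set. The annotation used here names no probe set for YAR023C, YAR028W (now called KTD1), YAR029W, YCR007C and YHL044W, and these 5 were not analysed here.

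DUP240 proteins are known to sit in membranes of the secretory and endosomal system, and strains that lack the whole family are viable. Mst27 and Mst28 form a complex and bind the coats of transport vesicles, COPI and COPII, which shape the vesicles that move cargo between the endoplasmic reticulum and the Golgi. Prm8 and Prm9 also form a complex in the endoplasmic reticulum, and both were named for induction by mating pheromone. Uip3 was found as an interactor of Ulp1, the protease that processes SUMO, and Ktd1 protects cells from the K28 killer toxin. The tandem copies are known to differ in number and sequence between strains of the species.

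The strains were X2180, a diploid laboratory strain derived from the reference strain S288C, and NBRC1950, a strain of a Japanese culture collection. Both were grown with shaking in YPD, a rich glucose medium, with no other treatment named, and poly(A) RNA of each was read on 2 one-colour Affymetrix Yeast Genome 2.0 arrays. The study's title concerns ergosterol content and vanillin tolerance, and the comparison asks which transcripts differ between the untreated strains. The labels give neither the growth phase nor the ploidy of NBRC1950.

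Signals are linear intensities after each array was scaled to a common median over the yeast probe sets, 973.6, and the median was between 894 and 1171 before scaling. Background on each array was read from 5217 probe sets that name no S. cerevisiae gene. A signal was counted as above background when it exceeded their 90th percentile, which was between 14.88 and 18.2. On each array 5261 to 5336 genes passed that limit. Strains were compared with limma over all tested probe sets, with p-values adjusted by the Benjamini-Hochberg method, and differences are log2 values of NBRC1950 minus X2180. For 17 ribosomal RNA probe sets the mean difference was -1.10 (SD 0.32 between them). SRB4, a control gene read at both ends, had log2 3'/5' ratios of 2.05 and 2.18 in X2180 and of 2.66 and 2.83 in NBRC1950. For ACT1, also read at both ends, the ratios were closer, 0.20 and 0.26 in X2180 and 0.33 and 0.31 in NBRC1950. The part of these shifts in the results below was not tested, and in bulk cultures fewer expressing cells cannot be told apart from less RNA per cell.

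All 5 measured members had a lower signal in NBRC1950 than in X2180. PRM8 and MST27, the pair on chromosome VII, were not above background on either NBRC1950 array, whereas UIP3, PRM9 and MST28 of the chromosome I cluster were above it on all 4 arrays. In limma 5 of the 5 measured members passed an adjusted p of 0.05 as lower, against 26.8% of the 5316 genes tested. None was higher, at an unadjusted p under 0.05 or by the methods' t-test either (0 in each), against 20.4% of all genes. The arrays of the strains did not overlap for the 5 measured members, nor, in the same direction, for 42.3% of all tested genes. The median difference over the 5 measured members was -2.08, against -0.05 over all tested genes. A gene was tested when its geometric mean over the arrays passed 16.35, and PRM8 (57.1) and MST27 (22.3) passed through their X2180 signals, so that both had to differ, and the counts and the median that include them are descriptions.

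**Figure D1:**
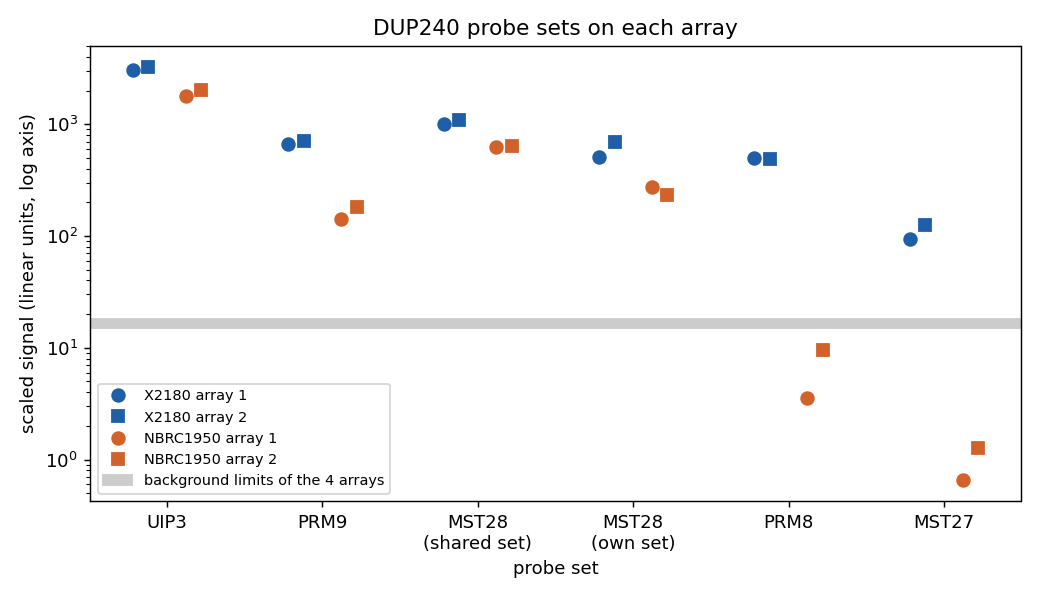
Scaled signal (linear units on a log axis) of the 6 DUP240 probe sets on each of the 4 arrays, with the grey band spanning the background limits of the arrays, 14.88 to 18.2. The NBRC1950 points of PRM8 and MST27 lie below the band, and for every probe set both NBRC1950 points lie below both X2180 points.

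Prm8 and Prm9, the partners of the pheromone-induced complex, were read by a probe set each. PRM8 had signals of 499.4 and 487.1 in X2180 and of 3.55 and 9.57 in NBRC1950. The X2180 arrays were close to each other, and both NBRC1950 values lay under the background limit. The gene was therefore at least 31.4-fold lower in NBRC1950. For this bound the mean log2 signal of X2180 was set against the higher of the background limit and the gene's own signal on each NBRC1950 array. The fitted difference was -6.22 ± 0.34 (SE; limma adjusted p = 1.03e-05, which belongs to this fit and does not test the bound), and it depends on the floor of 4.567 that was set before taking logs: with the floor at the 90th background percentile it was -4.92.

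PRM9, the partner gene on chromosome I, had signals of 659.8 and 702.1 in X2180 and of 143.2 and 180.3 in NBRC1950. All 4 values were well over background and the strains did not overlap. The means were 680.9 ± 29.9 and 161.8 ± 26.3 (SD, 2 arrays a strain), which is a difference of -2.08 ± 0.13 (SE; limma adjusted p = 2.2e-05), or 4.24-fold lower in NBRC1950. The signals of the same strain differed by 0.09 between arrays in X2180 and by 0.33 in NBRC1950 on the log2 scale.

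The genes of the vesicle coat binding complex, MST27 and MST28, divided in the same way by locus. MST27, on chromosome VII, had signals of 94.8 and 124.6 in X2180 and of 0.649 and 1.26 in NBRC1950. Both NBRC1950 values were under the floor as well as under the background limit, so that the gene was at least 6.92-fold lower there. Its fitted difference of -4.57 ± 0.30 (SE; limma adjusted p = 2.76e-05, again for the fit with floored values and not for the bound) became -2.73 with the floor at the 90th background percentile, and with a filter at the 95th percentile MST27 was not tested.

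MST28, the last gene of the chromosome I cluster, was read by a pair of probe sets. One of them is marked by the array maker as shared between similar sequences, and the annotation does not say which ones. The shared probe set gave 1005 and 1092 in X2180 and 625.4 and 635.5 in NBRC1950, a difference of -0.73 ± 0.08 (SE; limma adjusted p = 0.000327). The other probe set gave 504.8 and 697.5 in X2180 and 275.5 and 233.6 in NBRC1950, a difference of -1.23 ± 0.16 (SE; limma adjusted p = 0.000825). Both probe sets were lower in NBRC1950 with no overlap of arrays. The X2180 arrays lay 0.47 apart on the log2 scale in the second probe set and 0.12 apart in the shared one. Whether the differences of these probe sets are unequal was not tested.

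UIP3, the gene of the Ulp1 interactor, had signals of 3049 and 3281 in X2180 and of 1804 and 2014 in NBRC1950. The strains did not overlap, with means of 3165 ± 164 and 1909 ± 149 (SD, 2 arrays a strain) and a difference of -0.73 ± 0.08 (SE; limma adjusted p = 0.000303), or 1.66-fold lower in NBRC1950. Within the chromosome I cluster PRM9 (-2.08) was thus further below X2180 than UIP3 (-0.73) and MST28 (-0.73 and -1.23), which flank it among the measured genes. With 2 arrays a strain, the smallest exact two-sided p that permuting the arrays allows is above 0.05, and the gap between these members was not tested.

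The size of the smaller differences depended on how the arrays were scaled. With scaling to the median of all probe sets, the median gene moved from -0.05 to 0.50, and UIP3 (-0.18, limma adjusted p = 0.113) and MST28 in its shared probe set (-0.19, adjusted p = 0.146) no longer passed. PRM9 was then at -1.54, the second MST28 probe set at -0.68, PRM8 at -5.84 and MST27 at -4.29, all past the threshold. That scaling called 92.5% of the differing genes higher in NBRC1950, and no further scaling 70.7%, against 43.2% as reported here. With no further scaling UIP3 stood at -0.52 and MST28 at -0.52 and -1.02, and the 5 measured members passed as lower. No probe was masked for mismatches with NBRC1950, and from these arrays a gene that is absent or diverged cannot be told apart from one that is not transcribed.

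**Figure D2:**
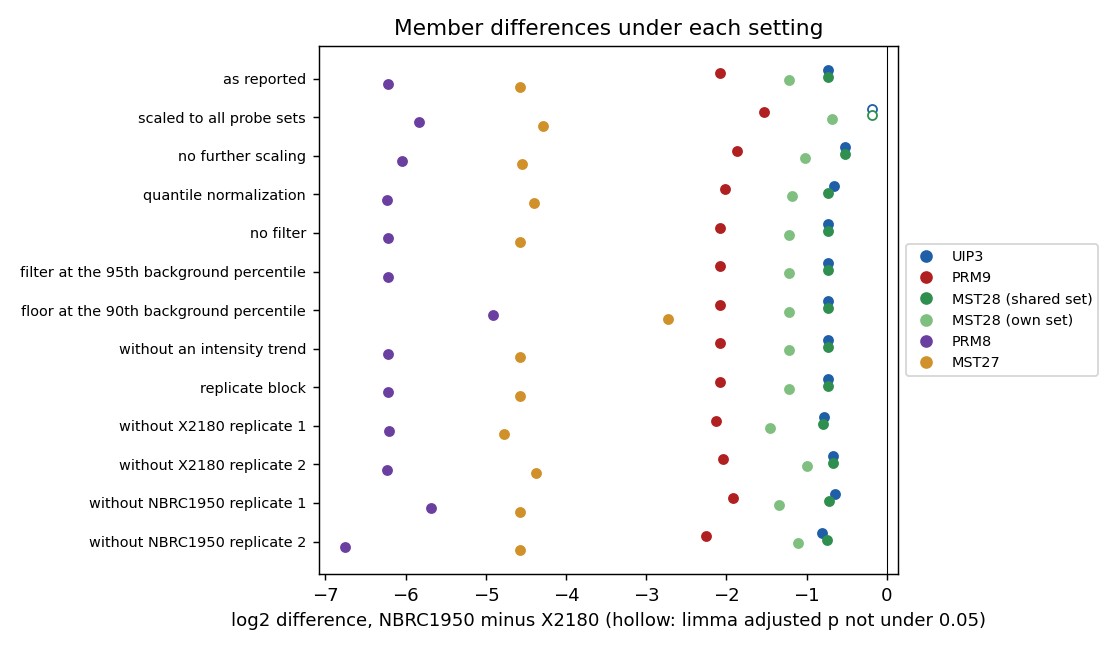
Log2 difference (NBRC1950 minus X2180) of each DUP240 probe set as reported and under 12 other settings, with filled points where limma gave an adjusted p under 0.05 and hollow points where it did not. Every point lies below 0, the hollow ones are UIP3 and the shared MST28 probe set scaled to all probe sets, and MST27 has no point with the filter at the 95th percentile.

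The 3 members above background on all 4 arrays were placed among all tested genes. A difference at least as negative as that of PRM9 was seen for 85 of 5316 genes (1.60%), itself included. For UIP3 the number was 426 (8.01%), and for MST28, read by its shared probe set, it was 424 (7.98%). The other MST28 probe set had a more negative difference (-1.23) and was not placed. PRM8 and MST27 have only bounds and were given no place in this order. Of 5289 tested genes above background on both X2180 arrays, 56 (1.06%) were above it on neither NBRC1950 array, and PRM8 and MST27 were among them. The reverse meant above background on both NBRC1950 arrays and on neither X2180 array. It was seen for 12 tested genes and for no measured DUP240 member. Genes too dim to be tested were left out of these counts, also where they met either condition.

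**Figure D3:**
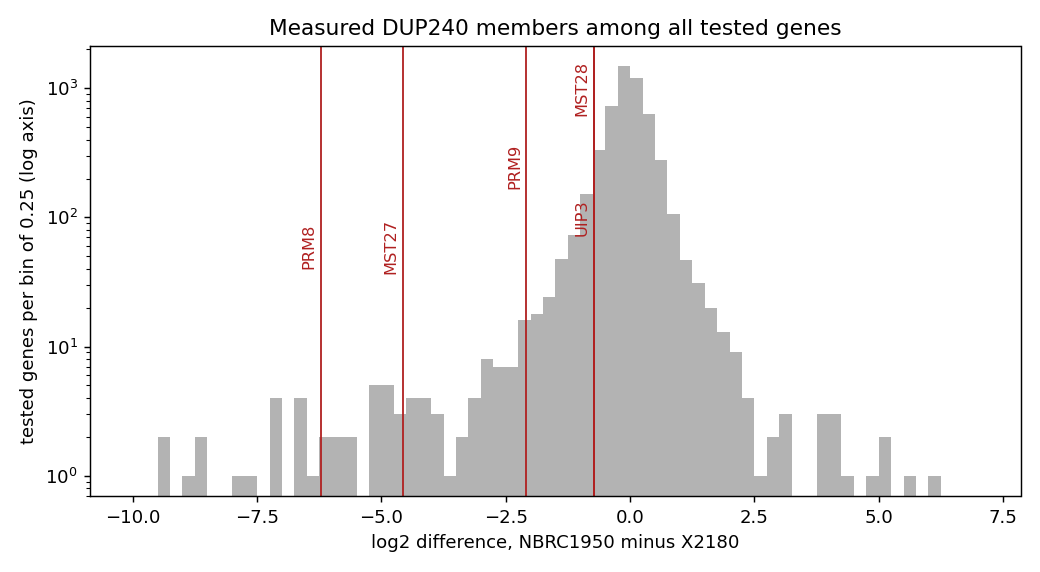
Number of tested genes (log axis) per bin of 0.25 in the log2 difference, NBRC1950 minus X2180, with vertical lines at the 5 measured DUP240 members. The lines of UIP3 and MST28 (shared probe set) nearly coincide at -0.73, and PRM9 lies at -2.08. MST27 and PRM8 are drawn at their fitted values of -4.57 and -6.22, which depend on the floor.

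The genes around PRM8 and MST27 were measured on both sides and were above background in both strains. All 10 neighbours, 5 on each side in the order of the reference gene table, passed the background limit on the 4 arrays, with differences from -0.79 to 0.58 and a median of 0.07. Of these, 4 were lower, 2 higher and 4 did not pass. Over all tested genes 26.8% were lower and 20.4% higher, the background for the neighbour counts at each locus. ERV14, next to PRM8 and itself the gene of a cargo receptor of COPII vesicles, had signals of 6503 and 6931 in X2180 and of 5240 and 5326 in NBRC1950, a difference of -0.35. TYW3, next to MST27 and an enzyme of tRNA modification, had 1043 and 958.1 in X2180 and 1064 and 1080 in NBRC1950, with a difference of 0.10 that did not pass. OLE1, the fatty acid desaturase, was higher by 0.58, and RAD6, a ubiquitin-conjugating enzyme, differed by -0.79, the largest decrease among the 10. Both genes of the pair were thus at background in NBRC1950 between flanks that were read on every array.

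Neighbours of the chromosome I cluster differed in both directions. Of 10 genes, 5 were higher, 2 lower, 2 did not pass and 1 was too dim to be tested. On the side of YAR023C, the protein kinase genes KIN3 and CDC15 were higher by 1.27 and 0.59, BUD14 was higher by 0.43, ADE1 (0.17) did not pass, and PAU7, next to the cluster and read by a shared probe set, differed by -1.12. On the side of MST28, the carnitine acetyltransferase gene YAT1 had overlapping arrays and a difference of 0.05, and the oxysterol-binding protein gene SWH1 was higher by 1.36. Further out, the flocculin gene FLO1 was at least 6.75-fold lower in NBRC1950, and YAR064W, whose probe set is shared, was at least 12.7-fold higher. Lower signals were therefore not shared by the immediate surroundings of the cluster as a whole. Most tested genes elsewhere on chromosome I also had positive differences, and whether the neighbours differ from the rest of the chromosome was not tested.

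**Figure D4:**
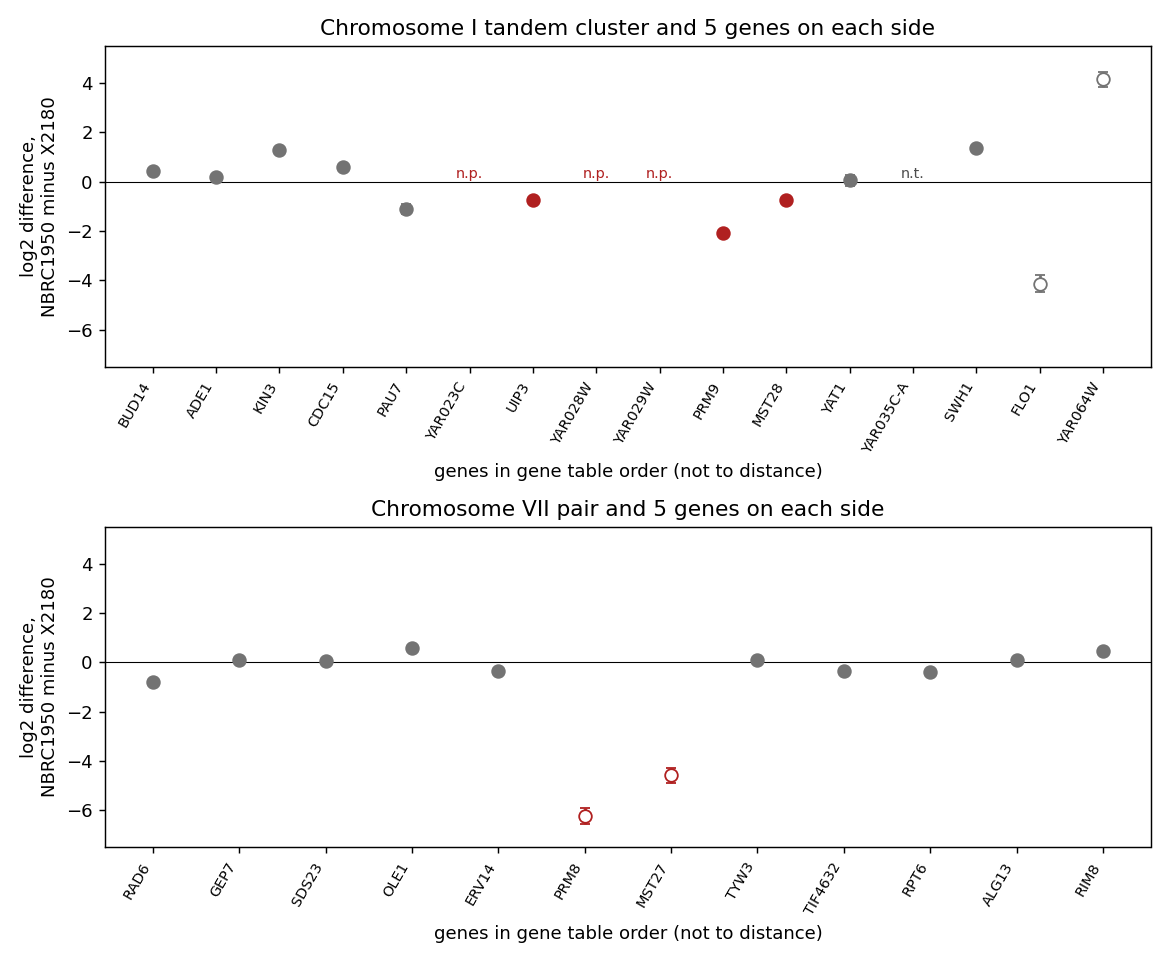
Log2 difference (NBRC1950 minus X2180) of the genes at the chromosome I cluster (top) and the chromosome VII pair (bottom), in gene order and not to distance, with DUP240 members in red, 5 genes on each side in grey and bars of 1 SE. Hollow points were below background on both arrays of one strain, n.p. marks members with no annotated probe set and n.t. a gene too dim to be tested; the 10 neighbours of PRM8 and MST27 lie between -0.79 and 0.58.

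The single copies YCR007C and YHL044W could be approached only through their neighbours. Around YCR007C, 9 of 10 neighbours were tested, 3 lower, 1 higher and 5 not past the threshold, and the largest difference was that of the flavodoxin-like gene YCP4 (-1.04). SAT4, next to the locus on one side, did not pass (-0.04). On the other side the adjacent YCR006C has no annotated probe set, and CIT2 beyond it was lower (-0.28). Around YHL044W, near a chromosome end, 7 of 10 were tested, with 4 higher and 2 lower. ECM34, the adjacent gene, had 19.1 and 15.1 in X2180, above background on 1 array, and 289.5 and 315.5 in NBRC1950, a difference of 4.15, and the next gene, YHL042W, was higher by 1.51. COS8, 4 genes away on the other side, had 1375 and 1368 in X2180 and 204.7 and 144.3 in NBRC1950. That is 7.98-fold lower (limma adjusted p = 8.98e-06).

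Transcripts of the coat proteins that Mst27 and Mst28 bind differed little. Of 11 genes of the COPI coat and its Arf switch, 0 passed in limma (2 higher and 2 lower at an unadjusted p under 0.05, and 0 by the methods' t-test), with a median of -0.05. SEC21, the coat subunit whose mutation extra Mst27 or Mst28 can suppress, had 3872 and 3703 in X2180 and 3661 and 3637 in NBRC1950. COP1 (-0.17), GLO3 (0.21), SEC26 (0.18) and RET3 (-0.16) had the smallest adjusted p-values of that list, from 0.0664 to 0.0765. Of 9 COPII genes, 2 were higher, SEC31 (0.37) and SEC16 (0.35), and 2 were lower, with a median of 0.04. The lower ones were SAR1 (-0.27), the GTPase that starts coat assembly, and SFB2 (-0.24). Over all tested genes 26.8% were lower and 20.4% higher. The 2 lower calls were lost without NBRC1950 replicate 1 or replicate 2, and the number of higher genes was 1 without either of these or X2180 replicate 1. With scaling to all probe sets, 11 COPI and 9 COPII genes were called higher, at medians of 0.49 and 0.59 near the median gene of 0.50. Quantile normalization called 2 COPI genes higher and 0 lower, and 2 COPII genes higher and 1 lower. With no further scaling 0 COPI genes were called, and 3 COPII genes were higher and 0 lower.

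Transcripts of the receptors that load cargo into these vesicles were mostly lower. Of 12 such genes, 9 were lower, 2 higher and 1 did not pass, against 26.8% lower and 20.4% higher over all tested genes. The median was -0.35 against -0.05 over all tested genes. EMP46, a lectin-like receptor, had 114.4 and 135.1 in X2180 and 35.9 and 44.6 in NBRC1950, a difference of -1.64, and ERV15 (-0.45), ERV41 (-0.41) and SVP26 (-0.37) followed. The 2 higher genes, ERP1 and ERP2 (0.24 and 0.21), lost their calls without NBRC1950 replicate 1 or replicate 2, and without NBRC1950 replicate 1 the number of lower genes was 6. Scaled to all probe sets, 1 was lower and 5 were higher, with a median of 0.20 that lay under the median gene, and with no further scaling 1 was lower and 0 higher.

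The other pheromone-regulated membrane protein genes differed in both directions. Of 7 tested, PRM5, induced by cell wall stress, was lower, with 2191 and 2161 in X2180 and 331.3 and 385.6 in NBRC1950, a difference of -2.61. PRM10 (1.79), PRM4 (0.88) and PRM7 (0.39) were higher, and PRM1, PRM2 and PRM3 did not pass. The shares over all tested genes were 26.8% lower and 20.4% higher. PRM6 was too dim to be tested. The counts of 1 lower and 3 higher also held with each array left out and with scaling to all probe sets.

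Of 20 genes of the pheromone response, 14 were above background on all 4 arrays and 16 were tested. Among these 8 were lower and 1 was higher (KAR4, 0.32), with a median of -0.49, against 26.8% lower and 20.4% higher over all tested genes. The a-cell protease gene BAR1 differed by -1.91, and its NBRC1950 signals (14.8 and 18.7) were above background on 1 array. The G protein genes STE4 and GPA1 differed by -0.72 and -0.78, and STE3, the a-factor receptor, was at least 2.09-fold lower. STE18, a further G protein gene, was too dim to be tested, with 10.9 and 5.93 in X2180 and 30.45 and 24.6 in NBRC1950. It was above background only in NBRC1950, and FIG1, also untested, only in X2180. STE12, the transcription factor that pheromone activates, had 542.6 and 533.6 in X2180 and 580 and 562.7 in NBRC1950, and did not pass (0.09). With an array left out the number of lower genes fell to 4 (X2180 replicate 2), 5 (X2180 replicate 1 or NBRC1950 replicate 1) or 6 (NBRC1950 replicate 2), and the number of higher genes was 1 in the first of these fits and 0 in the others. Scaled to all probe sets, 2 were lower and 6 higher. With no further scaling 2 were lower and 1 higher, and with quantile normalization 5 were lower and 4 higher. Among 9 tested mating type and haploid genes, most of them also in this list, 7 were lower and 2 did not pass, and RME1 (-1.87) was among the lower ones. Under either scaling to all probe sets or no further scaling, 3 were lower, and scaling to all probe sets also called 1 higher. With quantile normalization 5 were lower and 0 higher. At least 8 and at most 10 of the 11 with a probe set were above background on an array.

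Genes of the partners of Uip3 and of relatives of the family gave mixed values. ULP1 itself had 1033 and 906.8 in X2180 and 1035 and 1094 in NBRC1950, and did not pass (0.14). UIP4, another Ulp1 interactor, was higher by 1.09, and SMT3, the SUMO gene (-0.27), and UIP5 (-0.49) were lower. Neither of these lower calls held without NBRC1950 replicate 1, and without any one of the other arrays the number of lower genes was 1. Of 8 measured COS genes, which belong to the related DUP380 family, 4 were lower, 1 higher and 3 did not pass, with a median of -0.50. The COS list held genes of that name only, and DUP380 genes of other names were not counted in it. For both lists the shares over all tested genes were 26.8% lower and 20.4% higher. COS6 had 1985 and 2103 in X2180 and 15.1 and 12.9 in NBRC1950, above background on 1 NBRC1950 array, COS8 was 7.98-fold lower, and COS2 and COS7 by -0.78 and -0.57, these with shared probe sets. COS4 (0.42), also with a shared probe set, was the higher one. Scaled to all probe sets, 4 of the Ulp1 list were higher and 0 lower, at a median of 0.45, and 3 COS genes were higher and 3 lower, at a median of 0.05; with no further scaling 0 genes of the Ulp1 list were lower.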

How the data were processed

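The authors deposited linear intensity values for each array, 1 a probe set. The submitters' processing notes name GCOS without a version, and the labels do not say whether it masked or scaled anything. Per the design text, the authors then normalized in GeneSpring and applied a t-test, and neither division it describes is visible in the deposited intensity values. Probe sets were matched to the R64 gene table by gene identifier. No coordinates were taken from that table, since the array annotation names no build, and member sequences were not used here.

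Values were scaled per array, floored at 4.567, the median background signal, and log2-transformed. Of 5498 yeast probe sets, 5358 (5316 genes) passed the filter and were fitted in limma 3.58.1 under R 4.3.3 (eBayes with an intensity trend), which was tested on simulated data. The fit had 2 residual degrees of freedom a gene and 5.415 prior ones, so that the number of arrays limits the precision. The duplicates are called independent experiments in the design text. A gene with several probe sets is represented by the brightest one. Members and lists were chosen with earlier results of these data known. Named genes are all measured members, 5 neighbours on each side of a locus and at most 4 genes of a list with the smallest adjusted p. Further genes were singled out after their values were seen (SEC21, STE12, ERP1, ERP2, KAR4, COS4, STE18 and FIG1 among them). Alternatives were other scalings, filters and floors, no trend, the methods' t-test, a replicate block and each array left out. Promoter and protein features planned for description were not analysed here.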

Additional observations from a re-analysis of the deposited data

How the results depend on the processing

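All 6 member probe sets kept a negative difference under every alternative in which they were tested. The 5 measured members were called lower with no further scaling, quantile normalization, no filter, the higher floor, no intensity trend and each array left out, where the lone array of a strain is assumed to vary like the others. With the filter at the 95th percentile 4 were tested and called. With the replicate number as a block the 5 calls held and 2671 genes were called in all, against 2509. Deviations of same-numbered arrays correlated at 0.06 over probe sets, and the arrays were not taken as pairs.

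Scaled to all probe sets, 3 members (UIP3 -0.18 and shared-set MST28 -0.19 not passing), 4289 genes in all, and 41 higher and 7 lower genes of the lists (10 and 26 as reported) were called. With no further scaling 1308 genes were called, 7 of the lists as lower. The methods' t-test, run with equal variances, called the 5 measured members lower at its unadjusted threshold (2071 genes in all). After Benjamini-Hochberg adjustment it called 529 genes, 1 and 5 of the lists as higher and lower, and 1 member, MST27, whose NBRC1950 values were both at the floor, while UIP3 (-0.73), PRM9 (-2.08), MST28 (-0.73 and -1.23) and PRM8 (-6.22) did not pass. With 1 array left out, 6 to 10 listed genes were higher and 16 to 22 lower, both lowest without NBRC1950 replicate 1. Signal over background limits PRM8 and MST27 to bounds.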

Other observations

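The loss of signal at PRM8 and MST27 was compared, after the values were seen, with other neighbouring genes. Tested protein genes were taken in gene table order. There, 10 runs of 2 or more consecutive genes were above background on both X2180 arrays and on neither NBRC1950 array. The runs held 22 of the 56 such genes. Of these runs 9 had 2 genes and 1, HXT9 to IMA5 on chromosome X, had 4. The runs YAR009C to YAR010C, YDR261W-B to YDR261C-D and YHL009W-B to YHL009W-A are reading frames of Ty retrotransposons. PHO89 and MAL33, MAL13 and MAL11, VTH1 and IMA3, BDS1 and YOL159C-A, HXT11 and YOL155W-A, and the run on chromosome X lay at most 12 protein genes from a chromosome end. PRM8 and MST27 had 198 protein genes between them and the nearer end of chromosome VII. They were the only run among the 10 that was neither of these kinds. Both kinds, and the limit of 12 protein genes, were set after the runs were seen, so that this is a description and not a test.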
